A study of Mus musculus with 3 samples.

Results

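The 10 genes described here make or receive signals that set the width and leakiness of blood vessels: Nos3, Edn1, Ece1, Ednrb, Ace, Ptgs1, Ptgs2, Ptgis, Calcrl and Ramp2. They were chosen by symbol, with earlier results of these data known, and all 10 were found among the 52661 gene identifiers of the deposited tables. The tables hold bulk RNA sequencing of sorted mouse mammary cells, with 1 library for each of 3 populations. Per the labels, every population was PROCR positive, EpCAM positive and high in CD49f, the integrin alpha 6 chain, and came under the heading of mammary epithelial cells. The CD36+ library was sorted as CD36 positive and podoplanin (PDPN) negative, and its title adds Cdh5 positive. The PDPN+ library was sorted as CD36 negative and PDPN positive, with Cdh5 negative in its title. The double-negative library was sorted as negative for both proteins, with Cdh5 positive in its title. The labels name no treatment, and the sources used here give no strain, age, number of mice or number of cells.

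Vessel tone is set by short-range signals that endothelial cells pass to the smooth muscle around them. Nitric oxide and prostacyclin relax that muscle, and endothelin contracts it through one receptor type while a second type on endothelium clears the peptide and releases nitric oxide. Angiotensin-converting enzyme makes a constricting peptide and destroys the dilating kinins, and adrenomedullin acts on endothelium through a receptor that needs an accessory protein to reach the cell surface. In the mammary gland the myoepithelial cells of the basal layer contract too, and prostaglandins are also made by epithelium.

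Estimated counts summed to between 51138993 and 67675778 per library. Markers of endothelium were abundant in the CD36+ and double-negative libraries, although the labels call these cells epithelial. Cdh5, which encodes the endothelial cadherin of the titles, stood at 465, 0.176 and 206 CPM in CD36+, PDPN+ and double-negative cells, and Epcam at 50.7, 560.1 and 104 CPM. Pdpn followed the sort, at 12.5, 830.2 and 32.3 CPM. Cd36 stood at 4766, 45.1 and 1523 CPM, so the library sorted as negative for both proteins held Cd36 transcripts well above the PDPN+ library. The 10 endothelial markers summed to 4662 CPM in CD36+ cells, 114 in PDPN+ cells and 3224 in double-negative cells, and all 10 reached 10 CPM in the first and the last. CPM are counts brought to a common library size with TMM factors, which correct for differences in RNA composition. The 8 basal and myoepithelial markers summed to 75.4, 5714 and 244 CPM in the same order, and the 8 luminal markers to 363, 645 and 295 CPM. Immune markers summed to 12.4, 6.30 and 1.53 CPM with none at 10 CPM, and with Adgre1 and Cd3e at 0 counts in both Cdh5-positive libraries, and of the 4 mast cell markers 2, 3 and 4 were at 0 counts. The 6 pericyte markers summed to 259, 70.6 and 189 CPM, of which Rgs5 alone gave 241, 51.9 and 164. The 6 fibroblast markers summed to 116, 611 and 61.1 CPM, and the 4 platelet markers to 8.43, 8.94 and 24.5 CPM. The 5 lymphatic markers did not share an order. Ccl21a stood at 34.4, 39.8 and 3463 CPM, Prox1 at 18.1, 6.15 and 21.1, Flt4 at 11.9, 4.12 and 3.09, Reln at 0.0676, 25.3 and 0.139, and Lyve1 at 0.0169, 0.189 and 0.0396. The part of any of these cell types in the values below was not tested. In bulk RNA, fewer cells of a type and less RNA per cell cannot be told apart.

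Since each population had 1 library, no value has a replicate error and no test between populations was possible. A low-input kit or a stranded kit with removal of ribosomal RNA was used, on 2 instruments, and which library had which is not given. A difference in kit or instrument between libraries therefore cannot be told apart from a difference between populations. Ratios compare these libraries, and their 95% intervals are exact and cover counting error only. So do the ratios given as "at least" where a library had 0 counts. PCR copies are not marked, so such a ratio is a bound by counting error alone. A gene is called apart where its CPM ratio was 4-fold or more and its higher level 10 CPM or more. Of the 10 genes, 6 were apart between the CD36+ and PDPN+ libraries, and each was higher in CD36+ cells: Nos3, Edn1, Ednrb, Ptgs1, Calcrl and Ramp2. Among all 9387 genes with at least 10 CPM in either of those libraries, 32.8% were apart, 15.1% higher and 17.6% lower in CD36+ cells. Scaling by total counts, which shifts log2 ratios here by -0.40 before the prior count is added, gave 11.8% and 22.4%, and left 6 of the 10 genes higher and 1, Ptgs2, lower. Upper quartile scaling turned the balance over all genes, to 17.9% higher and 14.9% lower. Between the double-negative and PDPN+ libraries, 7 of the 10, these and Ace, were apart and higher in double-negative cells, against 34.3% of 9515 genes apart, 15.0% in that direction and 19.3% in the other. Between the CD36+ and double-negative libraries 1 of the 10 was apart, Ptgs2, against 24.3% of 8968 genes, 12.3% higher and 12.0% lower in CD36+ cells. The first and second of these comparisons share the PDPN+ library. The median log2 ratio of the 10 genes was 2.69, 2.35 and -0.40 in the 3 comparisons, and that of the 9387, 9515 and 8968 genes with at least 10 CPM in the pair was -0.02, -0.11 and 0.11. Without Ptgis, which is under 10 CPM, the median of the other 9 was 2.84, 2.37 and -0.33. Because the 10 genes were chosen with earlier results of these data known, their shares and medians beside those of all genes are a description only. Upper quartile scaling moved log2 ratios against the PDPN+ library, before the prior count, by 0.27 and 0.28, and total counts moved those of the double-negative library by -0.23 against PDPN+.

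**Figure D1:**
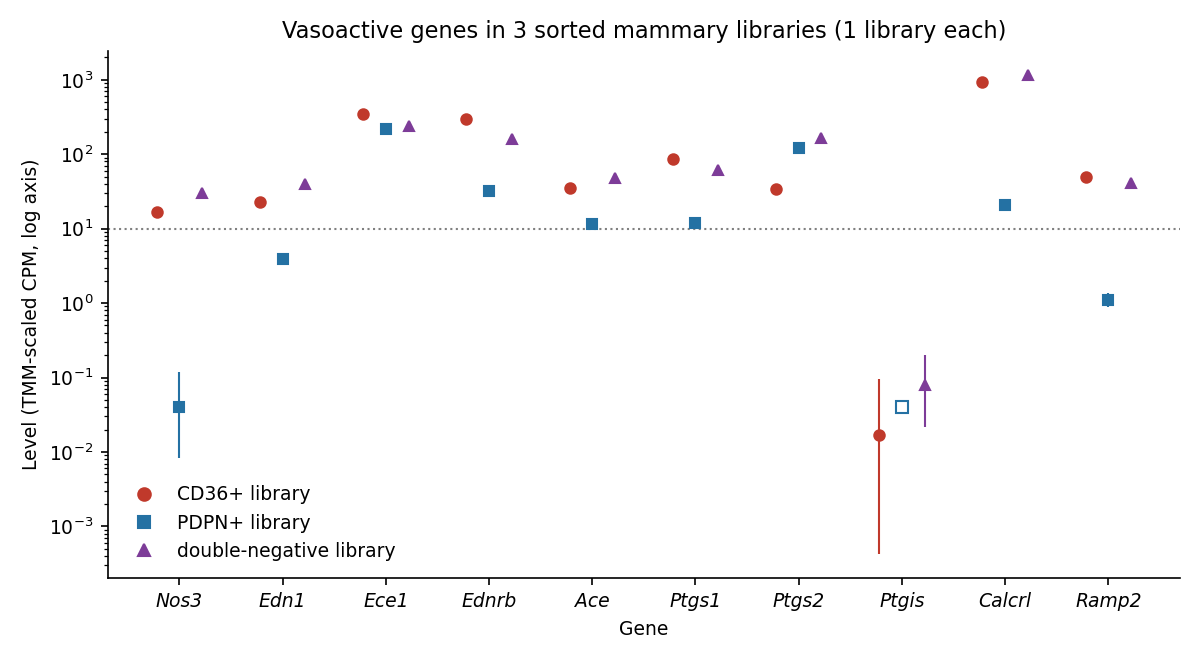
Level of each of the 10 genes in CPM on a log axis, 1 point per library, with bars for the 95% counting interval and a dotted line at 10 CPM. The open square stands at the floor of 3 counts because Ptgis had 0 counts in PDPN+ cells, and Nos3, Calcrl and Ramp2 show the widest gap between the PDPN+ library and the other two.

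The promoters of 7 of the 10 genes were matched by symbol in a RefSeq table of build GRCm38.p6, the sequence of mm10, and Nos3, Ptgis and Ramp2 were not. The 250 bases before the RefSeq start site of 5 of them are shown because these genes divide by pattern: Calcrl, Ednrb, Edn1 and Ptgs1 were highest in the Cdh5-positive libraries, and Ptgs2 was lowest in CD36+ cells. They lie at chr2:84425267-84425516 (Calcrl, minus strand), chr14:103843702-103843951 (Ednrb, minus strand), chr13:42301226-42301475 (Edn1, plus strand), chr2:36230176-36230425 (Ptgs1, plus strand) and chr1:150099781-150100030 (Ptgs2, plus strand). RefSeq and GENCODE start sites differ for part of them: all 250 bases of the Ednrb window and 145 of the Calcrl window lie inside the GENCODE extent of the gene. Capitals mark GGAAG on either strand, the core bound by ETS factors of endothelium and many other cells, together with AACAGGAA in Calcrl and TTNCGCAA in Ptgs2.
Calcrl: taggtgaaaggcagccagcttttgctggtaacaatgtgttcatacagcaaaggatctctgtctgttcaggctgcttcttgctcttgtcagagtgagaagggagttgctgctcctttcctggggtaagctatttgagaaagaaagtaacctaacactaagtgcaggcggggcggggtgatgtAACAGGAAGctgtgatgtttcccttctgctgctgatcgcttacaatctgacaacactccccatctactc
Ednrb: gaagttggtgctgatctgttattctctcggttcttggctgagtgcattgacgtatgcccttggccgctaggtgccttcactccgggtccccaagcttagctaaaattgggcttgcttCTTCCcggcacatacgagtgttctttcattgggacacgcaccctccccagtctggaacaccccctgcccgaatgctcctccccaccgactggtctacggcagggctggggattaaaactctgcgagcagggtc
Edn1: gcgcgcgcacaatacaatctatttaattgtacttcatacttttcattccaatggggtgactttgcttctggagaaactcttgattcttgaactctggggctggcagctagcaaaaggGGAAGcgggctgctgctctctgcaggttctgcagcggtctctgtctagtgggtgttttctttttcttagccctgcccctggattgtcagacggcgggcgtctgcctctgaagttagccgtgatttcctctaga
Ptgs1: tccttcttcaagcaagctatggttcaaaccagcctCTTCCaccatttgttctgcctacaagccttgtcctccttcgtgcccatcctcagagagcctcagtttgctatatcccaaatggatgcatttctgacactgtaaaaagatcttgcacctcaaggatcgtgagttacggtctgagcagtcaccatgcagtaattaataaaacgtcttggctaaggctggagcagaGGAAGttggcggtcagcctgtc
Ptgs2: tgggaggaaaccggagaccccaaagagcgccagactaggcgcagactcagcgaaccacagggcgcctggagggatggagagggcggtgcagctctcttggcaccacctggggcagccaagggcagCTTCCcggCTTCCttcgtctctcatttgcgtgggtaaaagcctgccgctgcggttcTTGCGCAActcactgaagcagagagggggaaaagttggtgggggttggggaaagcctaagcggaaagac

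The 7 matched genes have 11 windows in the table, 4 of them for Ece1 and 2 for Ace. GGAAG or its reverse complement was present in 7 of the 11 windows, 1 for each gene, and in 64.1% of the 32851 promoters in the table, a like share. AACAGGAA, the letters of a composite element of forkhead and ETS factors, was found in Calcrl alone among the 7, starting 69 bases before the start site and overlapping its GGAAG, and 2.25% of promoters hold it. TTNCGCAA, the letters of a C/EBP site, was found in Ptgs2 alone, 69 bases before the start site and readable on both strands, and 0.670% of promoters hold it. The NF-kappa B motif, searched as GGG and TTCC with 3 free bases between them, was present before Ednrb and before 1 of the 4 start sites of Ece1, against 4.65% of promoters. CANNTG, the E-box to which E proteins bind, was present before Ptgs1, Ptgs2, Ace and Ece1 and was not found in the windows of Calcrl, Ednrb and Edn1, and it was in 5 of the 11 windows against 66.2% of promoters. TATAAA occurred before Ace, against 12.4% of promoters, and GATA before Ece1 and Ptgs1, in 4 of the 11 windows against 53.6%. These 7 motifs were searched on both strands, and a match describes letters only.

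Nos3 encodes the endothelial nitric oxide synthase and lies on the plus strand of chromosome 5 at 24364810 to 24384474 (mm10). It stood at 16.5 CPM in CD36+ cells (15.5 to 17.6), 0.0406 in PDPN+ cells (3 counts) and 29.7 in double-negative cells (28.2 to 31.2). The PDPN+ library was at the floor of 3 counts, and the other two lay far above it. The ratio to the PDPN+ library was 408 for the CD36+ library (139 to 1980.3) and 731 for the double-negative library (249.8 to 3551). The double-negative library was 1.79-fold higher than the CD36+ library (1.65 to 1.95). Per length, Nos3 was among the lowest of the 10 genes, at 4.61, 0.0178 and 9.07 TPM in CD36+, PDPN+ and double-negative cells. TPM is a share of transcripts corrected for length and serves here to set different genes side by side. It carries no TMM factor, so a TPM ratio between libraries differs from the CPM ratio partly by a shift common to all genes. The antisense neighbour Atg9b, which overlaps Nos3, stood at 0.0507, 0.0135 and 7.66 CPM, and the sources used here do not give the strand setting of the counting.

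Around Nos3, 14 of 18 other genes of nitric oxide production and response reached 10 CPM in any library, and they did not share one direction. Of the 13 with at least 10 CPM in CD36+ or PDPN+ cells, 4 were apart upward in CD36+ cells and 2 downward, against 15.1% and 17.6% of all genes tested. Of 12 in the double-negative and PDPN+ pair, 2 were apart upward in double-negative cells and 3 downward, against 15.0% and 19.3%. Cav1, the caveolar coat protein that holds the synthase inactive, stood at 772 CPM in CD36+ cells, 172 in PDPN+ cells and 822 in double-negative cells. Nostrin, which brings the synthase in from the membrane, had 0 counts in PDPN+ cells. It stood at 10.02 CPM in CD36+ and 55.0 CPM in double-negative cells. By counting error alone, the ratios were at least 247 and 1355 against the floor of 3 counts, and at least 200 and 1102 by the exact 95% interval. Ddah1, which breaks down an inhibitor of the synthase, stood at 15.8, 0.0135 and 2.79 CPM in CD36+, PDPN+ and double-negative cells. Gch1, the first enzyme of its cofactor tetrahydrobiopterin, stood at 148, 39.6 and 59.4 CPM.

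Several genes that receive the nitric oxide signal were highest in PDPN+ cells. The cyclic GMP phosphodiesterase Pde5a stood at 15.3 CPM in PDPN+ cells, against 0.422 in CD36+ and 0.396 in double-negative cells. The kinase Prkg1 stood at 7.21, 25.9 and 9.37 CPM in CD36+, PDPN+ and double-negative cells, within 4-fold. Guanylate cyclase, the nitric oxide receptor, is a dimer, and its subunit genes differed in pattern. Gucy1b1 stood at 3.73, 13.2 and 1.31 CPM, and Gucy1a1 at 11.3, 0.176 and 0.0396 CPM, and the second alpha subunit gene Gucy1a2 stood at 1.25, 2.46 and 2.75 CPM. The arginase Arg2, which competes for arginine, had 0 counts in CD36+ cells, against 24.3 CPM in PDPN+ and 11.8 CPM in double-negative cells.

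Of the endothelin genes, Edn1 encodes the peptide made by endothelium (chromosome 13, 42301476 to 42307990, plus strand). It stood at 22.9 CPM in CD36+ cells (21.7 to 24.1), 3.92 in PDPN+ cells (3.48 to 4.3995) and 40.1 in double-negative cells (38.4 to 41.9). The PDPN+ library was the lowest and the double-negative library the highest. The ratios to the PDPN+ library were 5.84 (5.14 to 6.65) and 10.2 (9.05 to 11.6), and the double-negative library was 1.75-fold higher than the CD36+ library (1.64 to 1.88). By TPM the ratios to the PDPN+ library were 4.16 and 7.97, although Edn1 has 1 annotated transcript. The other endothelin peptides were near zero, with at most 1 count of Edn2 and 1 of Edn3 in any library.

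Ece1, the protease that releases active endothelin from its precursor (chromosome 4, 137862237 to 137965229, plus strand), was within 2-fold in every pair. It stood at 344 CPM in CD36+ cells, 215 in PDPN+ cells and 241 in double-negative cells. By TPM the libraries were closer still, at 85.7, 86.7 and 88.5. By CPM the CD36+ library was 1.60-fold above the PDPN+ library (1.57 to 1.63), and by TPM the PDPN+ library was 1.01-fold higher. The CPM ratio of 1.12 between the double-negative and PDPN+ libraries turned direction under scaling by total counts, and the ratio of 1.43 of CD36+ to double-negative cells turned under TPM. By CPM Ece1 and Edn1 therefore differed in pattern, with the peptide gene apart between the PDPN+ library and each of the others and the protease gene within 2-fold. The closer Ece1 values by TPM carry no TMM factor and depend on the transcripts to which its reads were assigned.

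Ednrb encodes the endothelin receptor that endothelium carries (chromosome 14, 103814625 to 103844402, minus strand). It stood at 294 CPM in CD36+ cells (289.8 to 299), 32.2 in PDPN+ cells (30.9 to 33.5) and 162 in double-negative cells (159 to 166). The CD36+ library was the highest and was 9.13-fold above the PDPN+ library (8.74 to 9.53) and 1.81-fold above the double-negative library (1.77 to 1.86). The double-negative library was 5.03-fold above the PDPN+ library by CPM (4.80 to 5.27) and 3.85-fold by TPM, which is under the 4-fold line. Ednra, the receptor of smooth muscle that drives contraction, stood at 33.5 CPM in CD36+ cells, 10.6 in PDPN+ cells and had 1 count in double-negative cells. Per length Ednrb exceeded Ednra in each library, by 9.16-fold in CD36+ cells (106 against 11.5 TPM) and by 2.87-fold in PDPN+ cells (14.3 against 4.98 TPM). Both receptors were above 10 TPM in CD36+ cells alone. The 6 pericyte markers differed in order. Pdgfrb stood at 13.6, 3.62 and 0.0594 CPM in CD36+, PDPN+ and double-negative cells, Cspg4 at 3.61, 3.65 and 0.0594 CPM, Kcnj8 and Notch3 were highest in PDPN+ cells, Abcc9 was highest in double-negative cells, and Rgs5 was highest in CD36+ cells with the lowest value in PDPN+ cells. Their part in the Ednra value was not tested. Mme, a membrane protease that degrades endothelin and other peptides and that basal mammary cells carry, stood at 10.997, 121 and 19.8 CPM in CD36+, PDPN+ and double-negative cells.

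Ace encodes angiotensin-converting enzyme (chromosome 11, 105967945 to 105989964, plus strand). It stood at 34.8 CPM in CD36+ cells (33.3 to 36.3), 11.7 in PDPN+ cells (10.96 to 12.5) and 48.0 in double-negative cells (46.1 to 49.98). The order of the libraries was that of Nos3 and Edn1. Against the PDPN+ library the CD36+ library was 2.97-fold higher (2.74 to 3.22) and the double-negative library 4.10-fold (3.79 to 4.43). The second ratio lay at the edge of the 4-fold line, and by TPM, which carries no TMM factor, it was 3.25-fold. Scaling by total counts also took it under the line.

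The other genes of the angiotensin system ranged from 0 counts to 292 CPM. Atp6ap2, which encodes the prorenin receptor, stood at 265, 180.4 and 292 CPM in CD36+, PDPN+ and double-negative cells, and Lnpep, an aminopeptidase that binds angiotensin IV, at 45.9, 17.0 and 44.3 CPM. Agtrap, a partner of the angiotensin receptor, stood at 0.557, 5.14 and 0.911 CPM, and the aminopeptidase gene Enpep at 3.06 CPM in CD36+ cells, with 2 and 0 counts in the others. The precursor gene Agt had 2, 0 and 1 counts in CD36+, PDPN+ and double-negative cells. Agtr1a, a receptor gene, had 2, 3 and 3 counts. Its paralog Agtr1b had 0, 30 and 1 counts, and the renin gene Ren1 had 1, 45 and 15. Agtr2, the second receptor type, stood at 8.26 CPM in PDPN+ cells, with 0 counts in CD36+ and 4 in double-negative cells. Of 16 angiotensin and kinin genes, 5 reached 10 CPM in CD36+ or PDPN+ cells. Of these 5, 3 were apart upward in CD36+ cells and 0 downward, against 15.1% and 17.6% of all genes tested. In double-negative against PDPN+ cells 2 of 4 were apart upward and 0 downward (15.0% and 19.3%). In CD36+ against double-negative cells 1 of 5 was apart upward and 0 downward (12.3% and 12.0%). Agtr2 and Agtrap, highest in PDPN+ cells, were under the 10 CPM line and not counted. Anpep, an aminopeptidase that trims angiotensin peptides and is carried by many cell types, stood at 43.8, 0.0947 and 26.8 CPM in CD36+, PDPN+ and double-negative cells. Cpe, a carboxypeptidase that processes peptide precursors, stood at 250.4, 11.4 and 436 CPM. Bdkrb2, the receptor for bradykinin, which is a substrate of Ace, stood at 24.6 CPM in CD36+ cells and 1.73 in PDPN+ cells, with 0 counts in double-negative cells.

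The cyclooxygenases Ptgs1 and Ptgs2 make the common precursor of all prostanoids, and their levels divided the libraries differently. Ptgs1, the constitutive enzyme (chromosome 2, plus strand, 36230426 to 36252272), stood at 85.1 CPM in CD36+ cells (82.8 to 87.5), 11.8 in PDPN+ cells (11.1 to 12.7) and 61.5 in double-negative cells (59.4 to 63.7). The PDPN+ library was the lowest, by 7.19-fold against the CD36+ library (6.69 to 7.73) and 5.20-fold against the double-negative library (4.82 to 5.61). Ptgs2, the inducible enzyme (chromosome 1, plus strand, 150100031 to 150108227), stood at 34.0 CPM in CD36+ cells (32.5 to 35.5), 121 in PDPN+ cells (118 to 123) and 164 in double-negative cells (161 to 168). Here the CD36+ library was the lowest, by 4.83-fold against the double-negative library (4.5997 to 5.07) and 3.56-fold against the PDPN+ library (3.39 to 3.74). The second of these passed the 4-fold line by TPM, at 5.63-fold. The double-negative library was 1.36-fold above the PDPN+ library by CPM, and by TPM the PDPN+ library was 1.06-fold higher.

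Per length, Ptgs1 exceeded Ptgs2 by 4.72-fold in CD36+ cells, at 41.3 against 8.76 TPM. In the PDPN+ library Ptgs2 exceeded Ptgs1 by 6.91-fold, at 49.3 against 7.14 TPM. The double-negative library held both at a like level, 46.4 TPM of Ptgs2 and 32.9 TPM of Ptgs1. Ptgs2 was thus the gene of the 10 that set the CD36+ and double-negative libraries apart, in a pair where 24.3% of genes were apart.

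**Figure D2:**
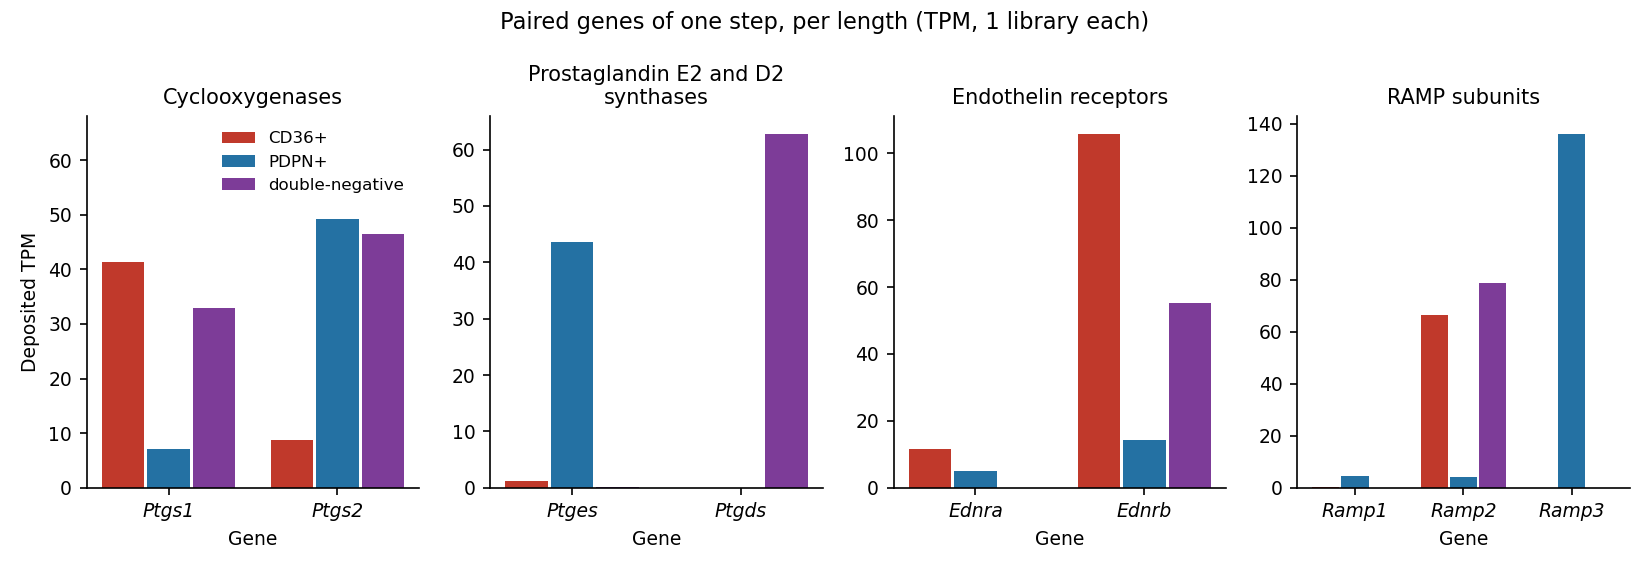
Deposited TPM (bars from 0, 1 bar per library) of genes that serve the same step: cyclooxygenases, prostaglandin E2 and D2 synthases, endothelin receptors and the RAMP subunits of the adrenomedullin receptor. Ptgs1 leads in CD36+ cells and Ptgs2 in PDPN+ cells, Ptges stands at 43.6 TPM in PDPN+ and Ptgds at 62.8 TPM in double-negative cells, and Ramp3 exceeds Ramp2 in PDPN+ cells.

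Transcripts of the last enzyme of prostacyclin, a dilating prostanoid, were almost absent from the counts. Ptgis, prostacyclin synthase (chromosome 2, 167191805 to 167240604, minus strand), had 1 count in CD36+ cells, 0 in PDPN+ cells and 4 in double-negative cells. A count of 0 allows up to 0.0406 CPM in PDPN+ cells at the floor of 3 counts, and up to 0.0499 CPM by the exact 95% interval. The prostacyclin receptor gene Ptgir had 0 counts in every library. At the same floor that allows up to 0.0507, 0.0406 and 0.0594 CPM in CD36+, PDPN+ and double-negative cells. The thromboxane synthase gene Tbxas1 stood at 5.14, 3.33 and 3.35 CPM.

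Of the 21 other prostanoid genes, 10 reached 10 CPM in any library, and several of the prostaglandin E2 branch were highest in PDPN+ cells. Pla2g4a, the phospholipase that frees arachidonic acid, stood at 32.1 CPM in PDPN+ cells, with 0 counts in CD36+ and 5 in double-negative cells. Ptges, the inducible prostaglandin E synthase that is coupled to Ptgs2, stood at 82.1 CPM there, against 3.68 in CD36+ cells and 0.574 in double-negative cells, ratios of 22.3 (19.5 to 25.6) and 143 (99.4 to 214). The prostaglandin E2 receptor genes Ptger2 and Ptger4 stood at 37.7 and 16.7 CPM in PDPN+ cells, at 21.9 and 5.61 CPM in CD36+ cells and at 7.27 and 0.0792 CPM in double-negative cells. The other synthases of prostaglandin E2 did not share this order, with Ptges2 at 20.4, 3.16 and 0.594 CPM and Ptges3, a widely expressed co-chaperone, at 1537, 1117 and 1072 CPM in CD36+, PDPN+ and double-negative cells. Ptgds, a prostaglandin D synthase, stood at 35.3 CPM in double-negative cells and had 0 counts in the others. By counting error alone, its ratios were at least 696 to the CD36+ library and 870.1 to the PDPN+ library. The transporter genes Abcc4 and Slco2a1, which carry prostaglandins out of and into cells, stood at 64.1, 4.84 and 32.7 CPM and at 231, 304 and 161 CPM in CD36+, PDPN+ and double-negative cells. Of 9 with at least 10 CPM in the pair, 2 were apart upward and 2 downward in CD36+ against PDPN+ cells (15.1% and 17.6% of all genes tested). In double-negative against PDPN+ cells 2 of 9 were apart upward and 4 downward (15.0% and 19.3%).

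Calcrl had the highest TPM of the 10 genes in both Cdh5-positive libraries. It encodes the G protein-coupled part of the adrenomedullin receptor (chromosome 2, 84330626 to 84425411, minus strand) and stood at 923 CPM in CD36+ cells (916 to 931), 20.9 in PDPN+ cells (19.9 to 22.0) and 1159.9 in double-negative cells (1150.5 to 1169). Both Cdh5-positive libraries were more than an order of magnitude above the PDPN+ library, by 44.1-fold (42.0 to 46.5) and 55.4-fold (52.7 to 58.4). By TPM these ratios were 31.2 and 43.1. The double-negative library was 1.26-fold above the CD36+ library (1.24 to 1.27). By TPM Calcrl ranked 548 of 21786 coding genes in CD36+ cells, 7192 in PDPN+ cells and 398 in double-negative cells.

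Ramp2 encodes the accessory protein that turns the Calcrl product into an adrenomedullin receptor (chromosome 11, 101246028 to 101259546, plus strand). It stood at 49.4 CPM in CD36+ cells (47.7 to 51.3), 1.11 in PDPN+ cells (0.882 to 1.38) and 41.7 in double-negative cells (39.9 to 43.5). The ratios to the PDPN+ library, 44.6 (35.8 to 56.2) and 37.6 (30.1 to 47.4), were like those of Calcrl by CPM and smaller by TPM, at 16.2 and 19.1. The CD36+ library was 1.19-fold above the double-negative library by CPM, and by TPM the double-negative library was 1.19-fold higher. The annotated extent of Ramp2 overlaps Vps25 on the same strand, which stood at 49.4, 33.7 and 17.3 CPM, so reads of the shared stretch could have gone to either gene. Per length Calcrl exceeded Ramp2 in each library, by 3.89-fold, 2.01-fold and 4.53-fold in CD36+, PDPN+ and double-negative cells.

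The other RAMP genes were highest in PDPN+ cells. Ramp3, which also gives an adrenomedullin receptor, stood at 92.6 CPM in PDPN+ cells, with 0 counts in CD36+ and 2 in double-negative cells. By counting error alone, the ratio was at least 1828 to the CD36+ library. Ramp1, which makes the receptor for the calcitonin gene-related peptide (CGRP), stood at 0.389, 5.10 and 0.178 CPM in CD36+, PDPN+ and double-negative cells. Per length Ramp3 exceeded Ramp2 by 33.1-fold in PDPN+ cells, at 136 against 4.11 TPM. Calcrl was therefore measured beside Ramp2 in the Cdh5-positive libraries. In PDPN+ cells Calcrl stood much lower, at 8.26 TPM, beside Ramp3 and lower levels of Ramp1 (4.52 TPM) and Ramp2. Whether the same cells held these transcripts was not tested.

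The ligand gene Adm, which encodes adrenomedullin, was highest in double-negative cells, at 57.0 CPM against 7.18 in CD36+ cells and 1.0006 in PDPN+ cells. Its ratio was 7.94 to the CD36+ library (7.17 to 8.81) and 57.0 to the PDPN+ library (45.2 to 72.8). Genes of the CGRP peptides, Calca and Calcb, had at most 1 count in any library. The atypical receptor Ackr3, proposed as a scavenger of adrenomedullin, stood at 37.2, 64.4 and 29.0 CPM, and Gpr182, a receptor gene of endothelium, at 0.135, 0.757 and 14.0 CPM in CD36+, PDPN+ and double-negative cells.

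**Figure D3:**
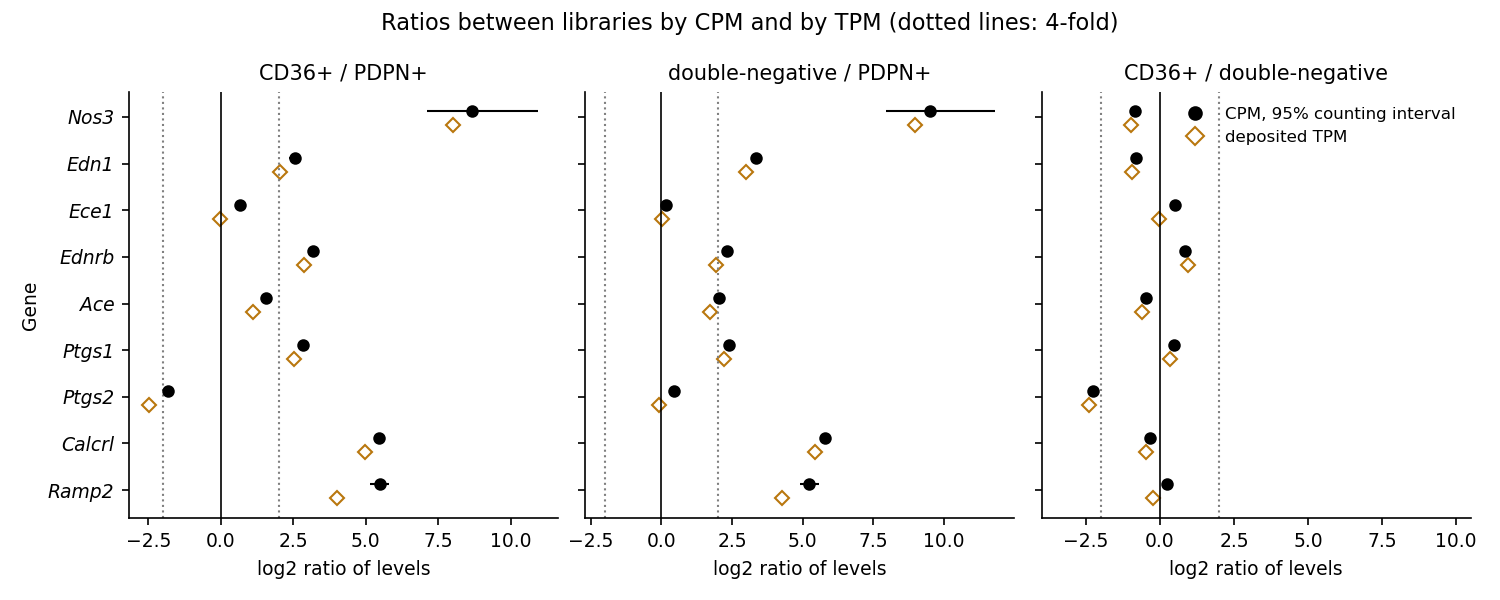
Log2 ratio of 9 genes in each pair of libraries, by CPM with the 95% counting interval (filled circles) and by deposited TPM (open diamonds), with dotted lines at 4-fold. Ptgis is left out for its low counts, Ptgs2 alone crosses the line in the panel of the Cdh5-positive libraries, and TPM lies left of CPM in both panels against the PDPN+ library.

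Set side by side per length, the 10 genes had a different order in each library. In the CD36+ library the highest were Calcrl at 258 TPM, Ednrb at 106, Ece1 at 85.7 and Ramp2 at 66.3. In the double-negative library they were Calcrl at 356 TPM, Ece1 at 88.5, Ramp2 at 78.6 and Ednrb at 55.1. In the PDPN+ library Ece1 at 86.7 TPM and Ptgs2 at 49.3 TPM led, and Ednrb at 14.3, Calcrl at 8.26 and Ptgs1 at 7.14 TPM followed. Edn1 stood at 12.9, 3.10 and 24.8 TPM, and Ace at 8.24, 3.84 and 12.5 TPM in CD36+, PDPN+ and double-negative cells. Without replicates, whether neighbours in these orders differ beyond the spread between samples is unknown.

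TPM depends on which transcripts of a gene the reads were assigned to, and this can be read from the reads per TPM of each gene. Set against genes with 1 annotated transcript, that quotient gives an implied effective length, which runs 179 to 191 bases below the transcript length for Edn1, a gene with 1 transcript. For Ace it was 4640.2 bases in CD36+ cells, 4719.9 in PDPN+ and 4651 in double-negative cells, near the longest annotated transcript of 4906 bases and far from the 2418-base coding transcript. For Calcrl it was 3933, 3908 and 3937 bases, hence alike in the 3 libraries. For Ece1 it was 4415 bases in CD36+ cells, 3835 in PDPN+ and 3292 in double-negative cells, against a longest transcript of 4816 bases and 3 others of at most 728. A shorter implied length means that more of the Ece1 TPM was assigned to short transcripts.

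For Ednrb the implied length was 3058 bases in CD36+ cells, 3475 in PDPN+ and 3553 in double-negative cells, with annotated transcripts of 4107, 3989 and 2669 bases. For Ptgs2 it was 4262, 3787 and 4274 bases, against transcripts of 4453 and 358 bases, so the PDPN+ library held some TPM on the short one. For Ptgs1 it was 2264, 2564 and 2261 bases. For Ramp2, with 8 annotated transcripts, it was 819.6 bases in CD36+ cells, 417 in PDPN+ and 640.4 in double-negative cells. The PDPN+ value of Ramp2 rests on 82 counts. These lengths are properties of Salmon's assignment, not of transcripts seen in full.

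**Figure D4:**
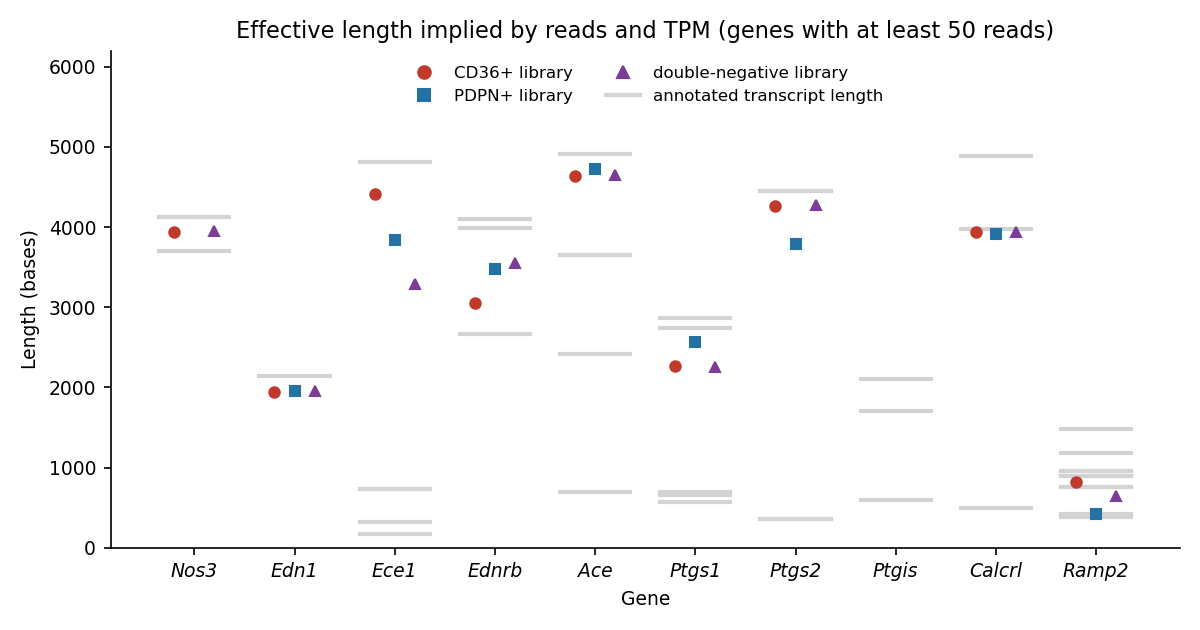
Effective length in bases implied by reads per TPM for each gene and library with at least 50 reads (points), beside the lengths of the annotated transcripts (grey lines). The points of Calcrl, Ace and Edn1 lie together, those of Ece1 run from 4415 down to 3292 bases, and Ramp2 is lowest in PDPN+ cells.

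Across the 6 lists of other vasoactive genes, 38 of 84 reached 10 CPM in any library. Between the CD36+ and PDPN+ libraries 34 had at least 10 CPM, of which 11 were apart upward in CD36+ cells, 6 downward and 17 within 4-fold, against 15.1% and 17.6% of all genes tested. Scaling by total counts changed this split to 7 higher and 8 lower. Between the double-negative and PDPN+ libraries 10 of 34 were apart upward, 10 downward and 14 within 4-fold, against 15.0% and 19.3%. Under upper quartile scaling 10 were apart upward and 8 downward, against 18.0% and 16.3%. In the pair of Cdh5-positive libraries 6 of 31 were apart upward in CD36+ cells, 5 downward and 20 within 4-fold, against 12.3% and 12.0%. Under total counts 4 were apart upward and 5 downward, against 10.3% and 13.2%. The median log2 ratio of the genes with at least 10 CPM in either library was 0.09, -0.04 and 0.05 in these 3 comparisons, against 2.84, 2.37 and -0.33 for the 9 genes above under the same filter, which were chosen with earlier results of these data known.

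**Figure D5:**
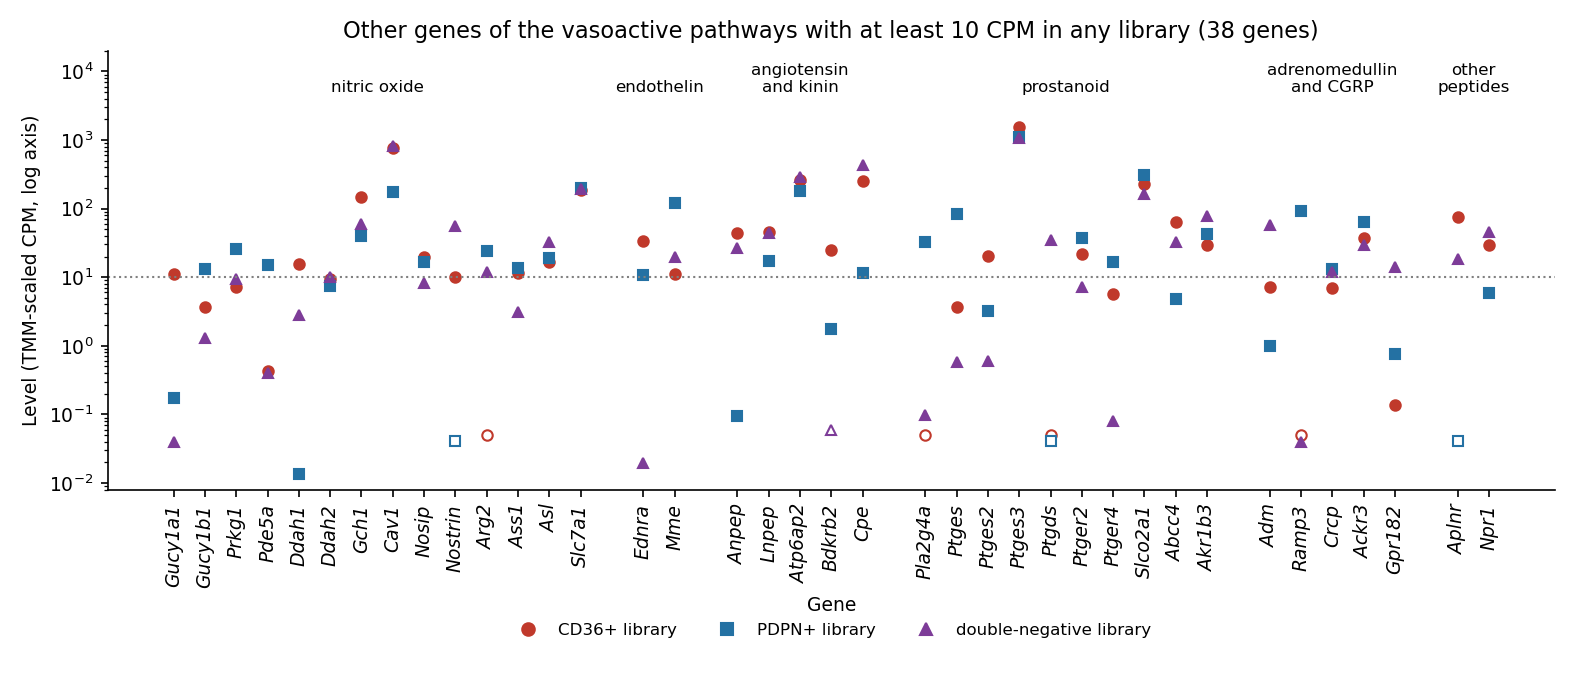
Level in CPM on a log axis of the 38 other pathway genes that reached 10 CPM, grouped by pathway, 1 point per library, with open points at the floor of 3 counts for 0 counts and a dotted line at 10 CPM. Pla2g4a, Ptges and Ramp3 are high in PDPN+ cells, Ptgds and Adm in double-negative cells, and Ednra and Bdkrb2 in CD36+ cells.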

How the data were processed

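Bulk RNA was sequenced from 3 sorted mouse mammary populations, 1 library each. Per the labels' protocols, a low-input kit or a stranded kit with removal of ribosomal RNA was used, on 2 instruments; the sources used here do not say which library had which. The authors deposited 1 table per library with estimated counts, TPM and effective lengths. Salmon 0.9.1 and the mm10 build are named, per the submitters' processing notes. Annotation release and strand setting: not given in the sources used here.

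Estimated counts were rounded, scaled with TMM factors of edgeR 4.0.16 (R 4.3.3) over the 3 libraries and given as CPM. Log2 ratios used a prior count of 2, and folds carry exact (Clopper-Pearson) 95% intervals. These were tried on simulated counts that held counting error only, so the trial cannot speak for any other error. PCR copies are not marked, so intervals and floors (3 counts) cover counting error only. Of 52661 identifiers, 52566 matched a symbol, and coordinates come from GENCODE M21. The deposited length columns were not used as mean transcript lengths, since the length implied by reads per TPM was up to 6.04 times as large for these genes. Motifs were searched in Python 3.11.15. DESeq2 1.42.0 size factors, total counts, upper quartiles, TPM, the prior count, rounding, the fold and the filter were tried as alternatives.

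Named genes were the 10 genes, pathway genes that reached 10 CPM or are paired directly with one of the 10, the genes of the sort and titles, and the 3 nearest genes of each. Names outside this rule, such as Agtr2, Agtrap, Enpep, Gucy1a2, Calca, Calcb, Apln, Nppa, Nppb, the overlapping Atg9b and Vps25 and the marker genes, were chosen after their values were seen. Members and lists were chosen with earlier results of these data known.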

Additional observations from a re-analysis of the deposited data

How the results depend on the processing

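Of the 30 ratios of the 10 genes, 14 were called apart, and none of these reversed under the 6 alternatives of scaling, unit, prior count and rounding. Rescaling of counts moved log2 ratios by -0.40 at the farthest, so it could not reverse a ratio of 4-fold or more. Under DESeq2 size factors, a prior count of 0.5 and unrounded counts, each of the 30 stayed within its counting interval. Outside their intervals lay 27 of the 30 under TPM, 24 under total counts and 14 under upper quartile scaling. Direction turned for 5 ratios that were not called, 4 of them under TPM and 1 under total counts: Ece1 in all 3 pairs, Ptgs2 between the double-negative and PDPN+ libraries and Ramp2 between the CD36+ and double-negative libraries. With TPM, 4 in place of 7 of the genes were apart between the double-negative and PDPN+ libraries. Nos3, Ednrb and Ace were lost, Nos3 because it stays under 10 TPM. Between the CD36+ and PDPN+ libraries TPM gave 5 higher, without Nos3, and 1 lower, Ptgs2. The share of all genes apart by TPM was not computed, and a line at 10 TPM differs from one at 10 CPM. Whether these changes under TPM are particular to the 10 genes is therefore unknown. Rescaling the counts of the pathway lists was chosen after seeing the data. With no filter on low counts, 2 in place of 1 were apart between CD36+ and double-negative cells, the second being Ptgis, on 1 and 4 counts. No paired analysis was possible because each group has 1 library, and no library could be left out. Genes at or under 3 counts cannot be told from absent at this depth.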

Other observations

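The genes nearest in level to each of the 10, by Euclidean distance of log2 CPM over the 3 libraries among 9259 other coding genes of at least 10 CPM somewhere, are given as a description of 3 points. For Calcrl they were Gimap6 at a distance of 0.30, Il2rg at 0.33 and Tcf4 at 0.41. Gimap6 stood at 1025, 19.1 and 993 CPM in CD36+, PDPN+ and double-negative cells, and Il2rg, the common gamma chain of interleukin receptors, at 957, 18.4 and 1402 CPM. For Ramp2 they were Enox2 (0.29), the adenylyl cyclase Adcy4 (0.45) and Slc16a4 (0.45). For Nos3 they were Zfp820 (0.23), Tram2 (0.39) and the lysophosphatidic acid receptor Lpar4 (0.45). For Ednrb they were Phactr2 (0.30), Crip1 (0.31) and Glul (0.33), and for Edn1 Arap3 (0.36), Slc50a1 (0.38) and the integrin gene Itgb3 (0.38). For Ptgs1 they were S100a13 (0.23), Enpp5 (0.41) and Pdgfd (0.42), for Ptgs2 Ppt1 (0.26), Nudc (0.33) and Fam91a1 (0.39), and for Ace Tnip2 (0.19), Rtl8a (0.20) and Ube4a (0.22). The tubulin gene Tubb5 was nearest to Ece1, at 0.04. Ptgis was under 10 CPM in each library while every candidate reached 10 CPM somewhere, so its closest candidate, 6.51 away, was far because of that filter.

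Receptors of other vasoactive peptides were also measured. Aplnr, the apelin receptor, stood at 75.7 CPM in CD36+ cells and 18.6 in double-negative cells, with 0 counts in PDPN+ cells. By counting error alone, its ratios to the PDPN+ library were at least 1867 and 459. The CD36+ library was 4.06-fold above the double-negative library (3.79 to 4.36) by CPM and 2.03-fold by TPM. Its ligand gene Apln stood at 5.66 CPM in CD36+ cells, with 0 counts in PDPN+ and 1 in double-negative cells. Npr1, the receptor for the atrial natriuretic peptide, stood at 29.5, 5.79 and 45.9 CPM in CD36+, PDPN+ and double-negative cells. Of the 13 genes of this list, 5 had 0 counts in each library, among them the natriuretic peptide genes Nppa and Nppb.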
